A study of Mus musculus with 4 samples.

Results

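Rab GTPases are small membrane-bound switches, and their genes were taken as every protein-coding gene whose symbol is Rab, a number and at most a letter and a digit more. This gave 59 genes of the 54532 in the count files. Another 18 symbols that begin with Rab and a digit, such as Rab interactors, pseudogenes and antisense genes, were left out. RNA had been sequenced from RAW 264.7 cells, a transformed mouse macrophage line, in 4 groups of 1 library each. Wild-type and Hnrnpul1-/- cells were either left untreated or given lipopolysaccharide (LPS) at 100 ng/ml for 10 h. LPS is a bacterial cell wall component that macrophages sense through TLR4, and the product of Hnrnpul1 is a nuclear hnRNP that binds RNA. The sources used here do not say how the knockout was made or whether it is 1 clone. With 1 library per group, the spread between cultures is unknown, and every interval below covers counting error only.

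A Rab protein cycles between an inactive form bound to GDP and an active form bound to GTP. Exchange factors load GTP, GTPase-activating proteins return the switch to its inactive form, GDI proteins extract it from the membrane, and the active form recruits effectors that move, tether or fuse vesicles. Each Rab marks its own set of membranes, and in macrophages the endosomal members act in sequence on the maturing phagosome.

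The libraries held between 17045432 and 17909549 reads counted to genes. The targeted gene, Hnrnpul1, had 5086 reads in untreated wild type and 447 in the untreated knockout, and 3114 and 350 under LPS. The knockout level was 8.62% of wild type untreated (95% interval 7.81 to 9.50) and 10.7% under LPS (9.57 to 12.0). Of 12 macrophage markers, 10 were measured at a mean of at least 1 CPM (reads scaled to the library's total), while Mertk and Mrc1 had at most 2 reads in any library. All 7 epithelial markers had 0 reads in every library. The 11 T and B cell markers summed to 4.69 and 2.89 normalized CPM in the untreated libraries and to 18.7 and 17.3 under LPS. Lck made up most of that sum, and Cd3e, Cd3g, Cd8a and Ms4a1 were at 0 throughout. The part of these genes in the LPS results was not tested.

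Of the 59 Rab genes, 41 had a mean of at least 1 CPM and entered the comparisons, together with 11640 genes in all. Another 8 had no read in any library: Rab3c, Rab9b, Rab27b, Rab36, Rab38, Rab39b, Rab42 and Rab44. The remaining 10 (Rab3b, Rab4b, Rab6b, Rab17, Rab25, Rab26, Rab30, Rab33a, Rab37 and Rab40b) had between 0 and 21 reads per library. Rab4b was the highest of them, at 17, 17, 14 and 21 reads in untreated wild type, untreated knockout, LPS wild type and LPS knockout. That order of libraries is kept below. A count of 0 allows a level of up to 0.158, 0.155, 0.195 and 0.186 normalized CPM in the 4 libraries (3 reads each). Levels are given in CPM after TMM scaling, which corrects for differences in RNA composition, and divided by gene length in kb wherever different genes are compared.

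Levels differed widely among the Rab genes of these cells. Rab5c, which controls fusion of early endosomes, had 102 normalized CPM per kb in untreated wild type. Rab7, the late endosome and lysosome Rab, had 99.4. Rab1b, which carries traffic from the endoplasmic reticulum to the Golgi, had 96.6. Rab2a, Rab1a, Rab31, Rab10 and Rab18 followed, at 55.5, 50.2, 49.5, 43.9 and 37.7 normalized CPM per kb. The 10 highest members held between 70.4% and 71.3% of the summed Rab level per kb in each library. The median of the 41 was between 9.98 and 10.8 normalized CPM per kb, against 7.49 to 7.70 for all 11640 genes. Together the 59 genes took between 0.293% and 0.310% of all counted reads.

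**Figure D1:**
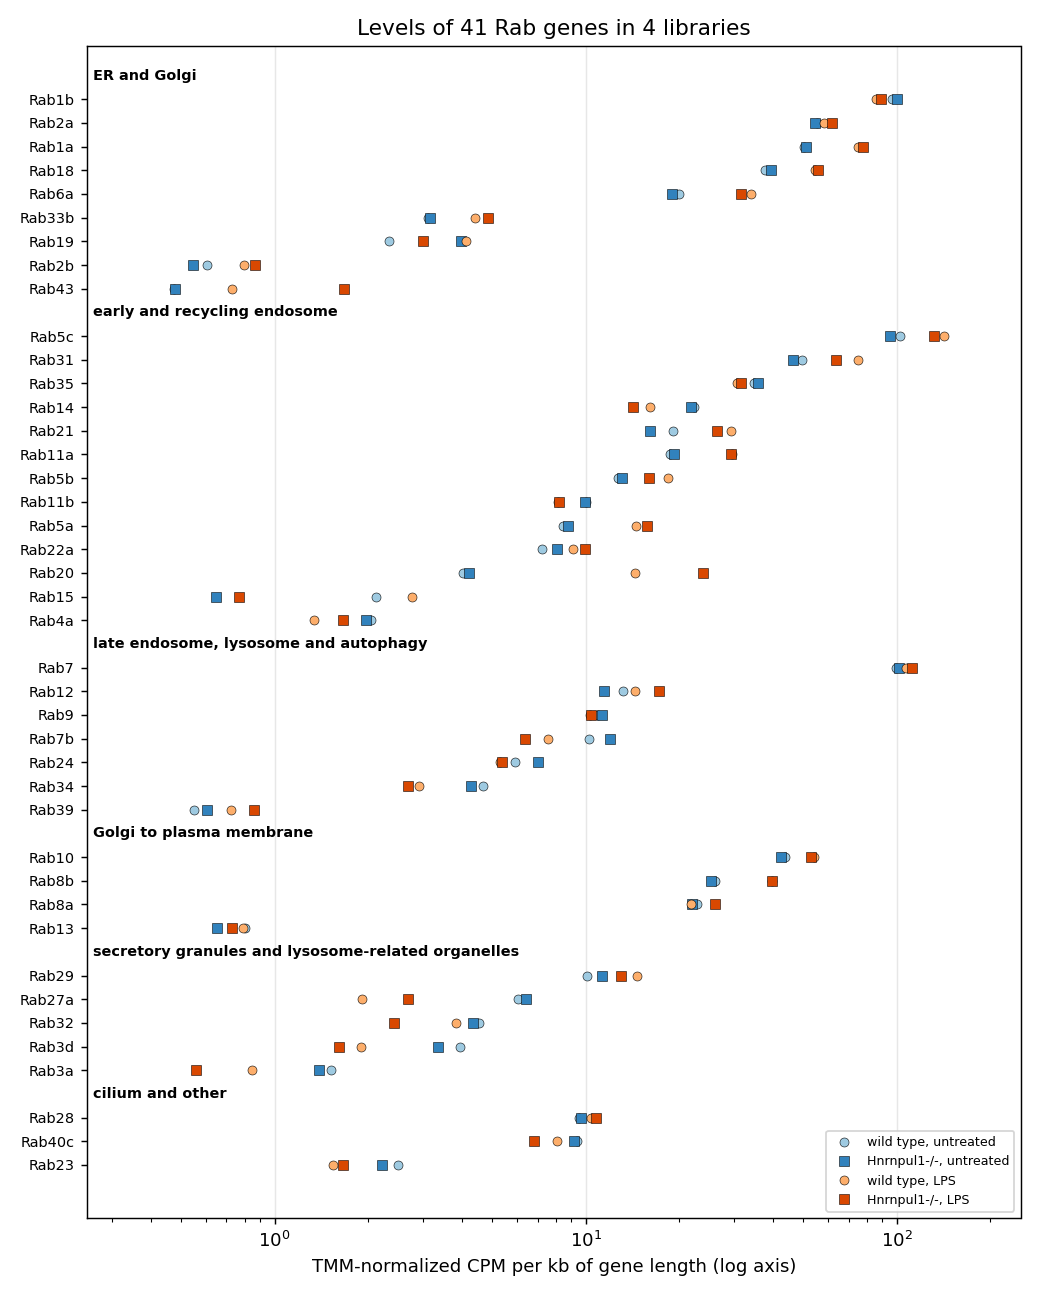
Level of each of the 41 measured Rab genes in the 4 libraries, as TMM-normalized CPM per kb of gene length on a log axis, grouped by the membrane on which the protein is known to act. Rab1b, Rab5c and Rab7 lie near 100 or above it in most libraries, and the knockout points lie close to the wild-type points of the same treatment for most genes.

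By role, Rab genes of early and recycling endosomes held 34.7%, 33.5%, 38.5% and 36.9% of the summed level per kb in the 4 libraries. Those of the endoplasmic reticulum and Golgi held 31.5%, 32.4%, 31.3% and 32.2%. Genes of secretory granules and lysosome-related organelles held 3.09% and 3.19% untreated and 2.28% and 1.99% under LPS. For the early and recycling genes both LPS libraries were above both untreated ones, and for the secretory genes both were below.

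The question of the first comparison is which Rab genes responded to LPS in each genotype. A call needed a ratio of 2-fold or more and an exact 95% counting interval that excluded no change. In wild type 1 of the 41 was called higher, Rab20, beside 11.2% of all genes, and 2 were called lower, Rab27a and Rab3d, beside 10.1% of all genes. In the knockout 2 were called higher, Rab20 and Rab43, beside 11.6% of all genes. There 3 were called lower, Rab27a, Rab3a and Rab3d, beside 12.0% of all genes. These shares of the Rab genes, 2.44% and 4.88% in wild type and 4.88% and 7.32% in the knockout, were below the background in each direction.

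Smaller shifts were common. At 1.5-fold in both genotypes, with both intervals excluding no change, 7 members were higher (Rab5a, Rab6a, Rab8b, Rab11a, Rab20, Rab21 and Rab43; 17.1% of 41, beside 15.9% of all genes). By the same rule 4 were lower (Rab3a, Rab3d, Rab27a and Rab34; 9.76%, beside 16.1% of all genes). Within 1.5-fold of no change lay 26 members in wild type (63.4%) and 23 in the knockout (56.1%), against 60.2% and 58.4% of all genes. The median log2 LPS ratio of the 41 was 0.13 in wild type and 0.20 in the knockout, against -0.004 and -0.02 for all genes, and 24 and 25 members were above 0. Scaling by total counts in place of TMM lowered every LPS ratio, by 0.30 in wild type and 0.31 in the knockout. The medians of the 41 were then -0.17 and -0.11, and 20 and 16 members were above 0, so directions of small ratios depend on the scaling.

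**Figure D2:**
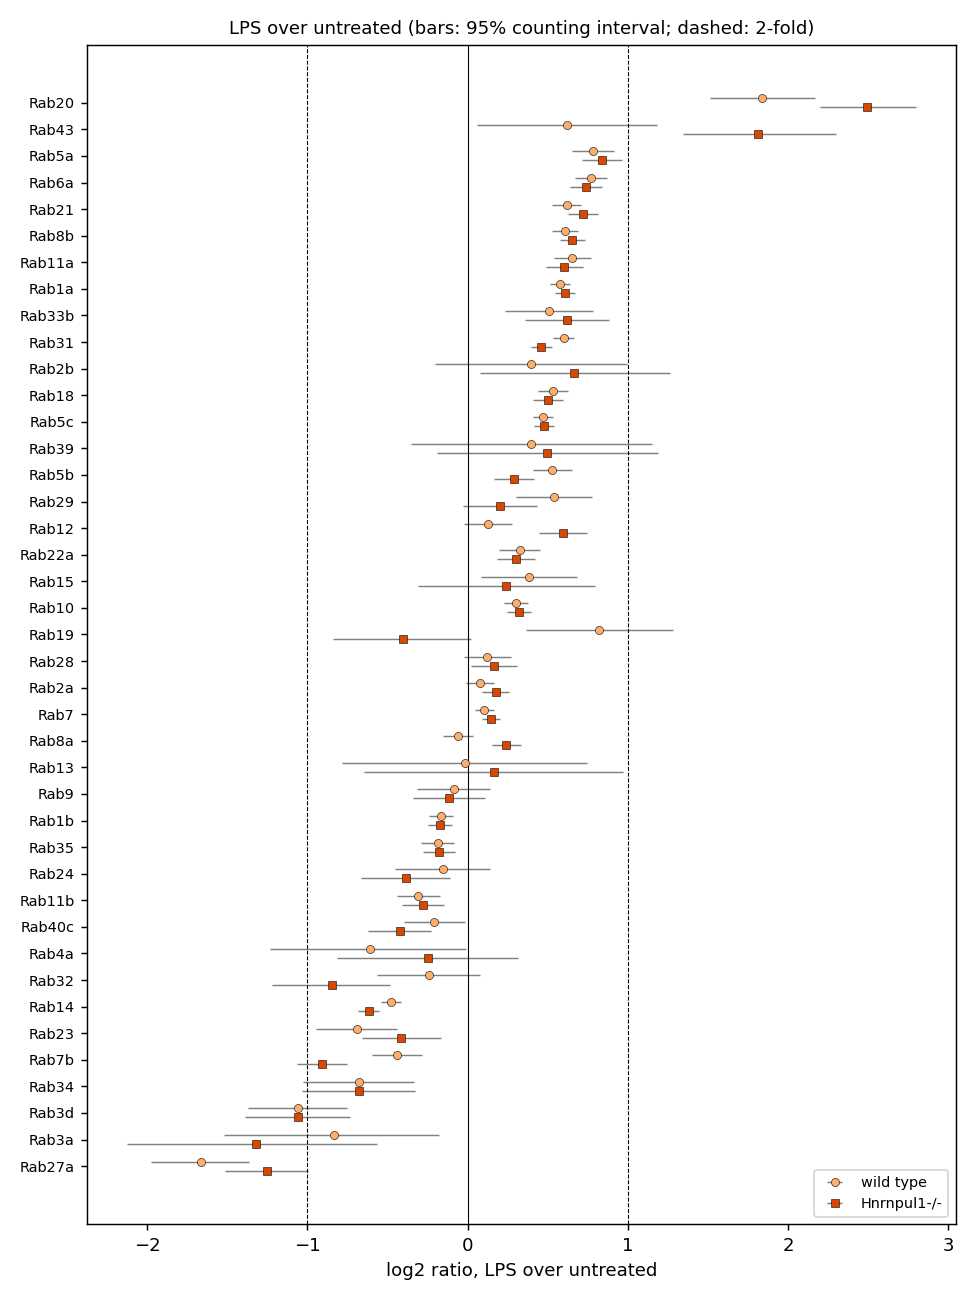
Log2 ratio of LPS over untreated for each of the 41 Rab genes, in wild type and in Hnrnpul1-/- cells, ordered by the mean of both. Bars are 95% counting intervals from 1 library per group and dashed lines mark 2-fold. Rab20 is the highest and Rab27a the lowest, at 1.84 and -1.66 in wild type.

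Rab20 (ENSMUSG00000031504, chr8:11453518-11478710, minus strand, GRCm38) is known in macrophages for its part in phagosome maturation. It had 107 and 114 reads in the untreated libraries and 309 and 534 under LPS. Its levels were 5.63, 5.89, 20.1 and 33.2 normalized CPM. Both LPS libraries were thus well above both untreated ones, and the LPS knockout was the highest of the 4. Rab20 rose 3.57-fold in wild type (log2 1.84, interval 1.52 to 2.17) and 5.63-fold in the knockout (log2 2.49, interval 2.20 to 2.80). An antisense gene with a start of its own nearby, E230013L22Rik, overlaps 25.6% of the exon bases of Rab20 and had at most 13 reads in a library. No source used here says if reads were assigned by strand, so reads on the shared bases of such pairs cannot be told apart.

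The other Rab genes of early and recycling endosomes moved less. In this list 13 of 16 members were measured, 1 of the 13 was called higher with LPS in each genotype (7.69%, beside 11.2% of all genes in wild type and 11.6% in the knockout) and none lower (beside 10.1% and 12.0%). The list's median log2 LPS ratio was 0.47 in wild type and 0.30 in the knockout, the second of which was -0.008 under total-count scaling. Rab5a, an early endosome Rab, had 844, 897, 1173 and 1333 reads and 44.4, 46.3, 76.4 and 82.8 normalized CPM. Its log2 LPS ratio was 0.78 in wild type (interval 0.65 to 0.91) and 0.84 in the knockout (0.71 to 0.96). Rab5c had 224, 208, 311 and 290 normalized CPM, with log2 LPS ratios of 0.47 and 0.48. For each of these genes the 2 LPS libraries were above the 2 untreated ones.

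Rab11a, which returns cargo from recycling endosomes to the surface, had 56.0, 57.7, 88.1 and 87.8 normalized CPM. The log2 LPS ratio of Rab11a was 0.65 in wild type (interval 0.54 to 0.77) and 0.60 in the knockout (0.49 to 0.72). Rab21, known for integrin traffic, had 96.1, 81.1, 148 and 134 normalized CPM, with log2 LPS ratios of 0.62 and 0.72. In both, the libraries split by treatment. Rab31, which acts between the Golgi and endosomes, had 189, 177, 286 and 244 normalized CPM and log2 LPS ratios of 0.60 and 0.46. Rab14, an endosomal Rab of the recycling route, went the other way, with 304, 297, 218 and 193 normalized CPM and log2 LPS ratios of -0.48 and -0.62. Rab11b and Rab35 were also below 0 in both genotypes, at -0.31 and -0.28 and at -0.19 and -0.18. Rab4a, at 36 to 68 reads, had -0.61 (interval -1.24 to -0.01) and -0.24 (-0.81 to 0.31). Rab5b and Rab22a lay between 0.29 and 0.53.

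Among the Rab genes of the endoplasmic reticulum and Golgi, 9 of 12 were measured. None was called with LPS in wild type, beside 11.2% of all genes higher and 10.1% lower. In the knockout 1, Rab43, was called higher (11.1%, beside 11.6% of all genes) and none lower (beside 12.0%). The median log2 LPS ratio of the 9 was 0.53 and 0.61 in the 2 genotypes, and 0.24 and 0.30 under total-count scaling. Rab6a, which directs traffic at the Golgi, had 1412, 1367, 1943 and 1897 reads and 74.3, 70.6, 127 and 118 normalized CPM. LPS over untreated gave a log2 ratio of 0.77 in wild type (interval 0.67 to 0.87) and 0.74 in the knockout (0.64 to 0.84). The opposite-strand gene Mrpl48 overlaps 19.0% of its exon bases and had fewer reads with LPS, 708, 779, 458 and 582. Rab18, a Rab of the endoplasmic reticulum and lipid droplets, had log2 LPS ratios of 0.53 and 0.50. Rab33b, known for its part in autophagosome formation, had 0.51 and 0.62. Rab2a had 0.08 and 0.18, and changed sign in both genotypes under total-count scaling. Rab2b, at 44 to 58 reads, had 0.39 (interval -0.20 to 0.99) and 0.67 (0.07 to 1.26). On the other strand, Gm43766 overlaps 59.3% of the exon bases of Rab2b and had at most 5 reads in a library. Tox4, also on the other strand, overlaps 4.68% of them and had 1296, 1365, 1965 and 2320 reads.

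Of the 5 measured Rab genes of secretory granules and lysosome-related organelles, Rab27a and Rab3d were called lower in both genotypes, and Rab3a in the knockout. That is 2 of 5 in wild type and 3 of 5 in the knockout, beside 10.1% and 12.0% of all genes. The list holds 12 genes, and 7 of them were under the filter. The median log2 LPS ratio of the 5 was -0.83 in wild type and -1.06 in the knockout. Rab27a (ENSMUSG00000032202, chr9:73044854-73097629, plus strand), which docks secretory lysosomes and granules at the plasma membrane, had 447, 482, 114 and 168 reads. Its levels were 23.5, 24.9, 7.42 and 10.4 normalized CPM. Both LPS libraries were below both untreated ones, and the fall was 1.66 on the log2 scale in wild type (interval -1.97 to -1.36) and 1.25 in the knockout (-1.52 to -0.998). Rab27b, its closest relative, had no read.

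Rab3d (ENSMUSG00000019066, chr9:21907491-21918192, minus strand), a Rab of regulated exocytosis, had 314, 273, 122 and 109 reads. Its levels were 16.5, 14.1, 7.95 and 6.77 normalized CPM. The log2 LPS ratio was -1.06 in both genotypes (intervals -1.37 to -0.75 and -1.39 to -0.73). Rab3a (ENSMUSG00000031840, chr8:70754679-70758677, plus strand), best known from synaptic vesicles, had 64, 60, 29 and 20 reads. Its log2 LPS ratio was -0.83 in wild type (interval -1.52 to -0.18) and -1.32 in the knockout (-2.13 to -0.57). The wild-type ratio of Rab3a was under 2-fold, and was -1.13 and called under total-count scaling. All 3 had their 2 lowest levels in the LPS libraries. On the deposited FPKM values with 1 added, the log2 ratios were smaller: -0.76 and -0.72 for Rab3d, -0.60 for Rab3a in the knockout and -0.99 for Rab27a in the knockout, all under 2-fold.

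Rab32, a Rab of melanosomes and other lysosome-related organelles, had 202, 197, 138 and 91 reads and 10.6, 10.2, 8.99 and 5.65 normalized CPM. For Rab32 the log2 LPS ratio was -0.24 in wild type (interval -0.57 to 0.08) and -0.85 in the knockout (-1.22 to -0.48). The LPS knockout library stood lowest. Rab29, which recruits the kinase LRRK2 to membranes, had 14.8, 16.5, 21.5 and 19.0 normalized CPM and log2 LPS ratios of 0.54 and 0.20, the one measured gene of this list above 0. Under total-count scaling its knockout ratio was below 0.

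Late endosomal, lysosomal and autophagy Rab genes were measured for 7 of 10, and none was called with LPS, beside 10.1% to 12.0% of all genes in each direction and genotype. Their median log2 LPS ratio was -0.09 in wild type and -0.12 in the knockout. Rab7 had 260, 265, 279 and 293 normalized CPM, log2 LPS ratios of 0.10 and 0.15, and ratios below 0 under total-count scaling. Rab7b, which works in transport from late endosomes to the Golgi, had 903, 1074, 538 and 476 reads and 47.5, 55.4, 35.0 and 29.6 normalized CPM. Its log2 LPS ratio was -0.44 in wild type (interval -0.60 to -0.28) and -0.91 in the knockout (-1.07 to -0.75), and both LPS libraries were below both untreated ones. Rab34, known for lysosome positioning, had 212, 198, 107 and 103 reads and a log2 LPS ratio of -0.68 in both genotypes. Rab12, which sends receptors to lysosomes, had 0.13 and 0.60, with the LPS knockout the highest of the 4 libraries at 52.4 normalized CPM. Rab9, Rab24 and Rab39 had log2 LPS ratios between -0.39 and 0.49. Prelid1 on the other strand overlaps 62.4% of the exon bases of Rab24, and the 226 and 275 untreated reads of Rab24 stand beside 4996 and 4928 of Prelid1.

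The 4 Rab genes that carry traffic from the Golgi to the plasma membrane were all measured, and none was called with LPS, beside the same shares of all genes. Rab8b had 124, 119, 188 and 188 normalized CPM and log2 LPS ratios of 0.61 (interval 0.53 to 0.69) and 0.65 (0.57 to 0.73). Rab10, known in macrophages for bringing TLR4 to the surface, had 154, 149, 190 and 186 normalized CPM, with log2 LPS ratios of 0.30 and 0.32. Rab8a had -0.06 and 0.24. Rab13, at 27 to 35 reads, had -0.01 and 0.16 with intervals wider than 1 log2 unit. Of the last 3 measured genes, the Hedgehog pathway regulator Rab23 had log2 LPS ratios of -0.69 and -0.41, the ubiquitin ligase component Rab40c had -0.21 and -0.42, and Rab28, a Rab of cilia, had 0.12 and 0.16.

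Related Rab genes can be compared within a library, where scaling cancels. The pairs were chosen after the values had been seen. The ratio of Rab1a to Rab1b reads rose with LPS by 0.75 on the log2 scale in wild type (interval 0.65 to 0.84) and by 0.78 in the knockout (0.69 to 0.88). Rab1a was 34.2%, 33.8%, 46.6% and 46.7% of the summed Rab1 level per kb in the 4 libraries. Rab11a to Rab11b rose by 0.96 (0.79 to 1.14) and 0.88 (0.71 to 1.06), and Rab11a was 65.0%, 65.9%, 78.4% and 78.1% of the pair. Rab8b to Rab8a rose by 0.67 (0.54 to 0.79) and 0.41 (0.29 to 0.53). In each of these pairs the member named first took a larger share in both LPS libraries.

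The ratio of Rab7b to Rab7 fell by 0.54 in wild type (interval -0.71 to -0.38) and by 1.05 in the knockout (-1.22 to -0.89). Rab5a to Rab5c rose by 0.31 (0.17 to 0.45) and 0.36 (0.22 to 0.50), yet Rab5c still held between 80.7% and 82.9% of the Rab5 level per kb. Rab31 to Rab22a rose by 0.27 (0.13 to 0.42) and 0.16 (0.02 to 0.29). For Rab2b to Rab2a and Rab3d to Rab3a, the intervals included no change in both genotypes. Rab5b to Rab5c differed in sign, 0.06 (-0.08 to 0.19) and -0.19 (-0.32 to -0.05). Similar copies can share reads: the pseudogenes Rab11b-ps2 and Rab7-ps1 had 86 to 137 and 95 to 141 reads per library, so values of Rab11b and Rab7 carry that uncertainty.

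**Figure D3:**
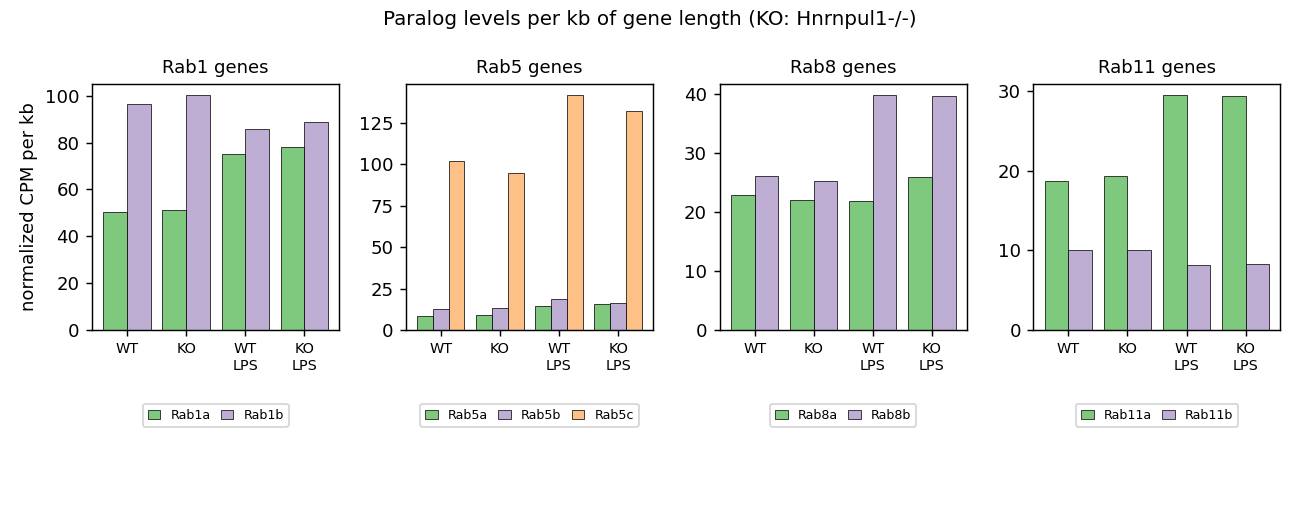
Level in normalized CPM per kb of the Rab1, Rab5, Rab8 and Rab11 genes in each library (WT, wild type; KO, Hnrnpul1-/-), without error bars. Rab1a, Rab8b and Rab11a are higher in both LPS libraries than in both untreated ones, while Rab1b and Rab11b are lower in both.

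Sequence upstream of the gene was read for Rab20 and Rab27a, the highest and lowest by the mean log2 LPS ratio of both genotypes. In the knockout alone Rab3a was the lowest, at -1.32. It was also read for Rab5a, Rab11a and Rab21, the other members at least 1.5-fold higher in both genotypes that hold a searched motif. The lines give 120 bases before the earlier of the RefSeq start and the start in the deposited files, 5′ to 3′ on the gene's strand, from RefSeq (GRCm38.p6). Capitals mark motif matches.
Rab20, chr8:11478711-11478830, minus strand: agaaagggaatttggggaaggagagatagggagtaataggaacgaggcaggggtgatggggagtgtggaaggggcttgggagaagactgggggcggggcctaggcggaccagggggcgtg
Rab27a, chr9:73044690-73044809, plus strand: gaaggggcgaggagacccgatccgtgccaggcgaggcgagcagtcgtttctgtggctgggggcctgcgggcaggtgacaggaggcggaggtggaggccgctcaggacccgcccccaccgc
Rab5a, chr17:53479114-53479233, plus strand: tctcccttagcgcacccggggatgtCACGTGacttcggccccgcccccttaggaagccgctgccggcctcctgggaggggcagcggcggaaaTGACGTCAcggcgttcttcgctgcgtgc
Rab11a, chr9:64737759-64737878, minus strand: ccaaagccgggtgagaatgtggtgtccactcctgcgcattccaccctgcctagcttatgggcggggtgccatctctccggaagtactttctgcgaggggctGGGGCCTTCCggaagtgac
Rab21, chr10:115315595-115315714, minus strand: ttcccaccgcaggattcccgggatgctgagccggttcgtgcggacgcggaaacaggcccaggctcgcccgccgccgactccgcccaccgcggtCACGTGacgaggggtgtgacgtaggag
The capitals are an E-box and a cAMP response element in Rab5a, a match to the NF-kB consensus in Rab11a and an E-box in Rab21. Rab20 and Rab27a show no match in these windows.

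Motifs were searched on both strands of 48 member promoters and 32851 promoters in all, from 250 bases before to 50 after the RefSeq start. The E-box CACGTG was in 5 member promoters, those of Rab5a, Rab20, Rab21, Rab23 and Rab24 (10.4%), and in 7.15% of all promoters. In Rab20 it begins 46 bases before the RefSeq start and inside the gene as the deposited files bound it. The NF-kB consensus was in 2, Rab11a and Rab28 (4.17%, against 8.46% of all). The AP-1 site TGANTCA was in 2, Rab34 and Rab39b (against 7.81% of all). The cAMP response element TGACGTCA was in 2, Rab5a and Rab25 (against 1.79% of all), and the interferon-stimulated response element was in 1, Rab19 (2.08%, against 3.44% of all). A match is a run of letters and no measurement of binding.

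The genotype comparison asks which Rab genes differed between Hnrnpul1-/- and wild-type cells under the same treatment. Untreated, 0 of 41 were called higher in the knockout, beside 1.15% of all genes, and 1 lower, Rab15, beside 0.859% of all genes. Under LPS 1 was called higher, Rab43, beside 1.66% of all genes, and 1 lower, Rab15, beside 1.83% of all genes. Within 1.5-fold lay 39 members untreated (95.1%, against 92.9% of all genes) and 36 under LPS (87.8%, against 89.2%). The median log2 genotype ratio of the 41 was -0.01 untreated, with 20 above 0, and 0.02 under LPS, with 22 above 0. The untreated median was 0.0005 under total-count scaling.

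Rab15 (ENSMUSG00000021062, chr12:76797960-76822908, minus strand), a Rab of the endocytic recycling compartment, was the one member called lower in the knockout under both treatments at 2-fold. It had 186 reads in untreated wild type, 58 in the untreated knockout, 196 in LPS wild type and 57 in the LPS knockout. The levels were 9.79, 2.99, 12.8 and 3.54 normalized CPM, so the libraries split by genotype and not by treatment. The knockout was 3.27-fold lower untreated (log2 -1.71, interval -2.16 to -1.28) and 3.61-fold lower under LPS (log2 -1.85, interval -2.30 to -1.42). At 1.5-fold in both treatments Rab15 was again the one lower member, beside 0.962% of all genes, and 0 were higher, beside 0.902%. Its neighbours did not show that split: Fntb had 16.2, 16.4, 12.2 and 13.8 normalized CPM, and Churc1 had 7.16, 8.05, 7.56 and 5.71. On deposited FPKM with 1 added, the untreated log2 ratio of Rab15 was -0.91, under 2-fold.

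**Figure D4:**
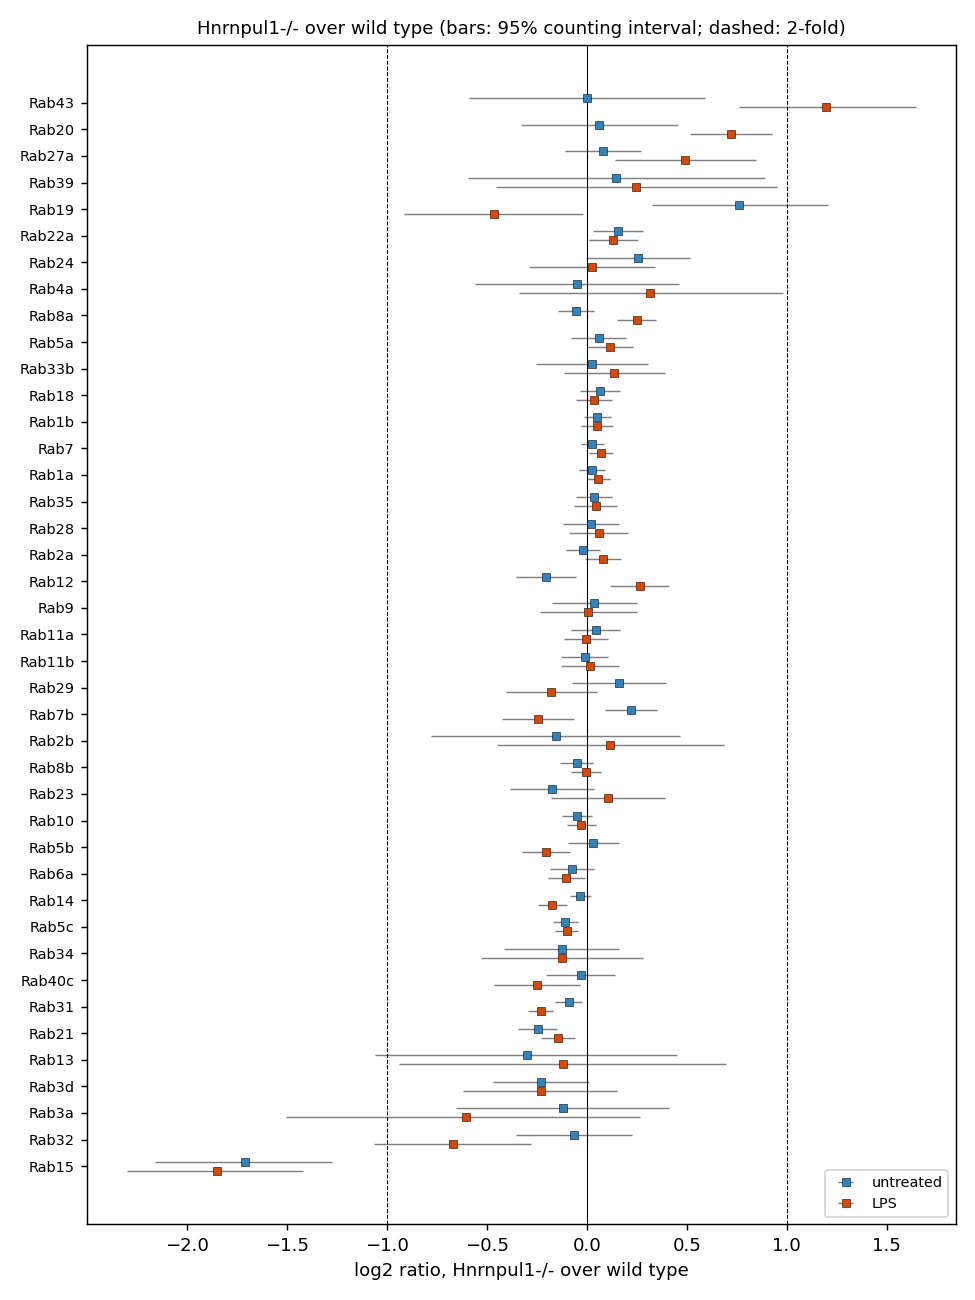
Log2 ratio of Hnrnpul1-/- over wild type for each of the 41 Rab genes, untreated and under LPS, ordered by the mean of both, with 95% counting intervals from 1 library per group and dashed lines at 2-fold. Rab15 lies apart at -1.71 and -1.85, and Rab43 is past 2-fold under LPS only, at 1.20.

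Whether the LPS response itself differed between genotypes was read from the knockout LPS log2 ratio minus the wild-type one, with its counting interval. By the same 2-fold rule 1 member was called higher, Rab43, beside 1.19% of all genes, and 1 lower, Rab19, beside 1.84%. The median of the 41 was 0.008 and 23 were above 0. Within 1.5-fold lay 37 members (90.2%), against 88.6% of all genes and 91.2% of the 10334 protein-coding genes. Of those protein-coding genes, 86 were called higher and 146 lower.

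Rab43 (ENSMUSG00000030055, chr6:87788853-87812164, minus strand), a Golgi Rab, had 50 and 51 reads untreated, 62 in LPS wild type and 149 in the LPS knockout. Its levels were 2.63, 2.63, 4.04 and 9.25 normalized CPM, and the LPS knockout stood apart from the other 3 libraries. Its log2 LPS ratio was 0.62 in wild type (interval 0.06 to 1.18) and 1.81 in the knockout (1.35 to 2.30), a difference of 1.20 (0.49 to 1.90). Under LPS the knockout was 2.29-fold above wild type. The same-strand gene Gm45140 overlaps 75.4% of the exon bases of Rab43 and had 1 or 2 reads per library, so reads could be split or lost between them. The adjacent gene Isy1 had 45.0, 47.9, 42.1 and 41.98 normalized CPM.

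Rab19 (ENSMUSG00000029923, chr6:39381175-39390380, plus strand), listed here with the Golgi Rab genes, had 70, 121, 100 and 76 reads and 3.68, 6.25, 6.51 and 4.72 normalized CPM. The untreated knockout and LPS wild type were the higher 2 libraries. Its log2 LPS ratio was 0.82 in wild type (interval 0.37 to 1.28) and -0.40 in the knockout (-0.84 to 0.02). The difference was -1.23 (-1.83 to -0.62), and -0.92 on deposited FPKM with 1 added. Rab20 had a smaller difference, 0.66 (0.23 to 1.09), and Rab27a had 0.41 (0.02 to 0.80). Rab12 had 0.47 (0.26 to 0.68), Rab7b had -0.47 (-0.69 to -0.25) and Rab32 had -0.61 (-1.08 to -0.13). None of these 5 reached 2-fold.

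**Figure D5:**
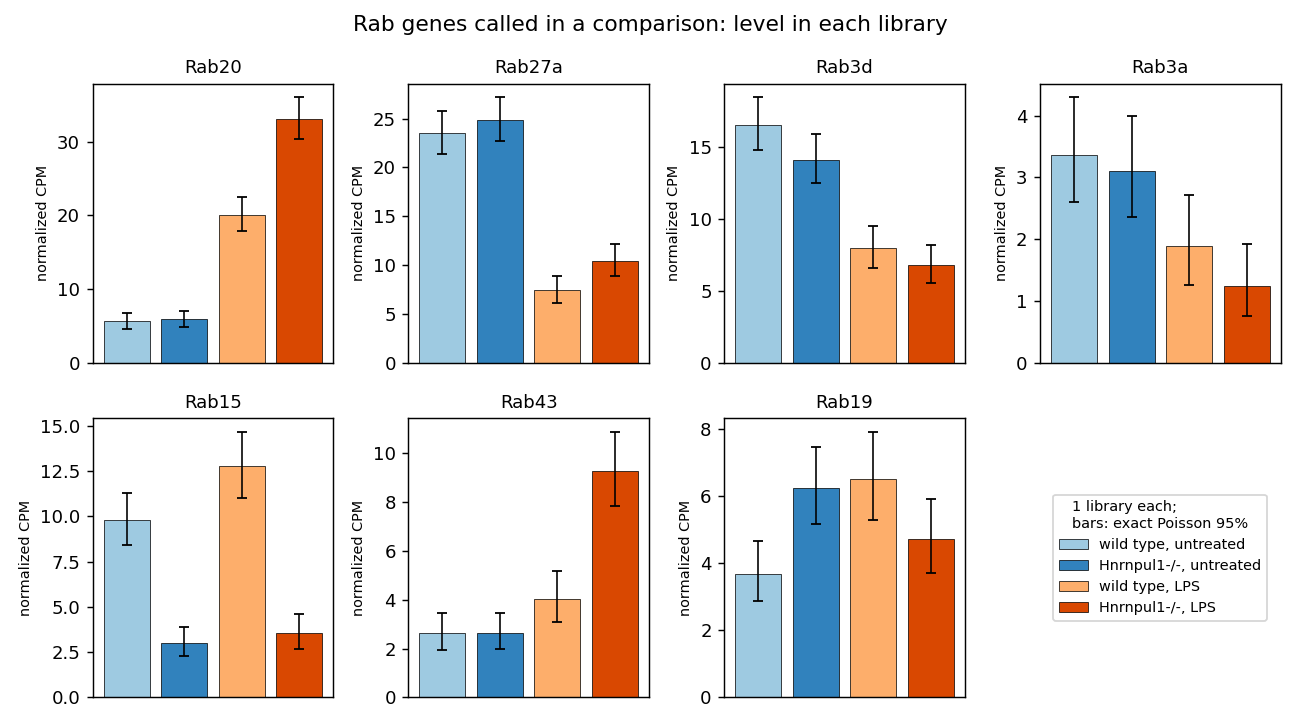
Normalized CPM of the 7 Rab genes called in at least 1 comparison, 1 bar per library with its exact Poisson 95% interval. Rab20 is high and Rab27a, Rab3d and Rab3a are low in both LPS libraries, Rab15 is low in both knockout libraries, and Rab43 is high in the LPS knockout alone.

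An additive model over all 4 libraries lets each genotype stand in for a replicate of the LPS effect, and each treatment for a replicate of the genotype effect. It leaves 1 residual degree of freedom, which also holds any difference in LPS response between the genotypes. By edgeR's quasi-likelihood test with Benjamini-Hochberg adjustment over all 11640 genes, 17 members passed an adjusted p of 0.05 as higher with LPS (41.5%, beside 30.2% of all genes). Another 10 passed as lower (24.4%, beside 30.1% of all genes). The 17 were Rab1a, Rab5a, Rab5b, Rab5c, Rab6a, Rab8b, Rab10, Rab11a, Rab12, Rab18, Rab20, Rab21, Rab22a, Rab29, Rab31, Rab33b and Rab43, and the 10 were Rab3a, Rab3d, Rab7b, Rab11b, Rab14, Rab23, Rab27a, Rab32, Rab34 and Rab40c. Under total-count scaling the counts were 11 higher and 16 lower, beside 2104 and 5786 of 11640 genes. With DESeq2 4 were lower, beside 2315 genes. A pass does not mean an equal response in both genotypes. The wild-type counting interval included no change for Rab12 (-0.03 to 0.28) and Rab32 (-0.57 to 0.08). For Rab29 the knockout interval did (-0.03 to 0.43), and Rab43 was called for a difference in LPS response. In edgeR's fit Rab20 had an adjusted p of 1.86e-05, Rab27a of 6.73e-05 and Rab3d of 0.000407. For the genotype effect 0 members passed as higher, beside 0.988% of all genes, and 1 as lower, Rab15, beside 0.928%, with an edgeR adjusted p of 0.00503.

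The proteins that run the Rab cycle were followed through 4 gene lists. Over 133 measured genes of these lists, LPS brought 12 calls higher and 13 lower among wild-type cells. The knockout had 15 and 16, and the median log2 LPS ratios were 0.03 and -0.01. These calls are 9.02% and 9.77% of the 133 in wild type, beside 11.2% and 10.1% of all genes. In the knockout they are 11.3% and 12.0%, beside 11.6% and 12.0%. The 133 still include Mtmr14, put on the exchange factor list in error and called higher in both genotypes. Between genotypes 3 of the 133 were called higher untreated and 0 lower, beside 1.15% and 0.859% of all genes. Under LPS 0 of them were higher and 2 lower, beside 1.66% and 1.83% of all genes. GDI, escort and prenylation genes were measured for 9 of the 9 found in the files. None was called in wild type, and 1, Chml, a Rab escort protein, fell in the knockout, by 1.09 on the log2 scale (11.1% of the 9, beside 12.0% of all genes). Its wild-type ratio was -0.76. The other escort protein, Chm, had 0.38 and 0.30, and the carboxyl methyltransferase Icmt had the largest mean genotype ratio at a mean of at least 5 CPM, -0.04 untreated and -0.22 under LPS.

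Exchange factors were measured for 42 of 43, with 3 called higher and 5 lower in wild type and 4 each way in the knockout. Mtmr14, 1 of those called higher in both, is a phosphoinositide phosphatase that was put on this list in error. Without it, 2 of 41 were higher (4.88%, beside 11.2% of all genes) and 5 lower (12.2%, beside 10.1%) in wild type. In the knockout 3 were higher (7.32%, beside 11.6%) and 4 lower (9.76%, beside 12.0%). Rabgef1, the exchange factor for Rab5, had 27.4, 26.5, 81.8 and 74.5 normalized CPM and rose by 1.58 and 1.49 on the log2 scale. The exchange factor Rab3il1 fell by 1.60 and 1.85, and Dennd2c by 1.18 and 1.71. Among list members with a mean of at least 5 CPM, Dennd2a had the largest mean genotype ratio, -0.15 untreated and -0.74 under LPS. St5 was the one exchange factor called between genotypes, with 74, 154, 28 and 44 reads and a log2 ratio of 1.03 untreated. That is 1 of 42, Mtmr14 included, called higher untreated, beside 1.15% of all genes.

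GTPase-activating proteins were measured for 36 of 38, with 2 called higher and 4 lower in wild type (5.56% and 11.1%, beside 11.2% and 10.1% of all genes). In the knockout 2 were higher and 7 lower (5.56% and 19.4%, beside 11.6% and 12.0% of all genes). Tbc1d9 had 32, 66, 121 and 232 reads and rose by 2.23 and 2.08, and its untreated genotype log2 ratio was 1.02 (interval 0.39 to 1.67). Tbc1d4, known for holding back glucose transporter traffic, fell by 2.15 and 2.26, and Grtp1 by 2.02 and 2.17. Tbc1d14, named after its values were seen, had 2855, 2323, 2395 and 1247 reads and was called lower in the knockout under LPS, at -1.01.

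Effectors were measured for 46 of 65, with 7 called higher and 4 lower in wild type (15.2% and 8.70%, beside 11.2% and 10.1% of all genes). In the knockout 9 were higher and 4 lower (19.6% and 8.70%, beside 11.6% and 12.0% of all genes). Micall2, which binds Rab8 and Rab13, had 11.9, 10.4, 77.2 and 103 normalized CPM and rose by 2.69 and 3.32. Rilpl2, of the family that binds phosphorylated Rab8 and Rab10, rose by 1.79 and 1.72. Kif20a, a Golgi and mitotic kinesin, fell by 1.999 and 1.82, and Rilpl1 was called lower in the knockout under LPS, at -1.01. Named after their values were seen, the Rab5 effector Eea1 had 116, 114, 319 and 321 normalized CPM and rose by 1.46 and 1.495. The Rab11 effector Rab11fip5 had 538, 426, 856 and 1517 reads, log2 LPS ratios of 0.98 and 2.10, and a difference between them of 1.12 (interval 0.90 to 1.34). It was the 1 of the 133 listed genes called higher for that difference, beside 1.19% of all genes. Another 1 was called lower, beside 1.84%. This was the GTPase-activating protein Tbc1d30, with 17, 45, 7 and 4 reads and a difference of -2.25 (interval -4.20 to -0.31).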

How the data were processed

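Poly(A) RNA of 4 RAW 264.7 samples, 1 per group, was sequenced. Each deposited file gives raw read counts and FPKM per gene, per the file headers. CASAVA 1.8, HISAT2 2.0.5 and featureCounts 1.5.0-p3, with the builds GRCm38 and mm10, are named in the submitters' processing notes. The authors' count columns were the main input and the deposited FPKM values an alternative, as log2(value + 1) with a mean FPKM of at least 1. Genes with a mean of at least 1 CPM were kept (11640). Counts were scaled by TMM (edgeR 4.0.16, R 4.3.3). Ratios of 2 libraries carry exact conditional Clopper-Pearson 95% intervals (scipy 1.17.1), and differences of log2 ratios carry delta-method intervals. A count of 0 entered a ratio as 3 reads. All fits ran over all kept genes. They were also run on simulated counts with no genotype effect and no difference in LPS response. The spread between cultures is unknown, so that run cannot show how reliable the calls are. The intervals treat each read as independent and cover counting error only. PCR reads are not independent molecules, so the intervals can be too narrow even for counting error.

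The members, role lists, pathway lists and comparisons were chosen with earlier results of these data known. Members were named when called in any comparison, when at least 1.5-fold in both LPS or both genotype ratios, or as the 2 highest per kb of a role list, and the other members to account for all. From each pathway list the 3 largest LPS ratios and the largest genotype ratio at a mean of at least 5 CPM were named, except that some genes are not reported here. Exon overlaps come from GENCODE M21, in which 57 of the 59 members have the deposited start and end. Alternatives were DESeq2 1.42.0 size factors and test, total-count scaling, no filter, a mean of at least 10 CPM, a 1.5-fold call and FPKM.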

Additional observations from a re-analysis of the deposited data

Results flagged for a closer look

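Rab19 and Rab43 stand here because the counting interval of the difference between their LPS ratios in the 2 genotypes excluded 0 at 2-fold or more. The difference, knockout minus wild type, was -1.23 for Rab19 and 1.20 for Rab43 on the log2 scale. With 1 library per group this compares libraries and was not tested between cultures. Both rest on few reads, 70 to 121 per library for Rab19 and 50 to 149 for Rab43.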

How the results depend on the processing

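No paired analysis was possible because each group is 1 library with no replicate number, and for the same reason no library could be left out. No called member ratio was reversed under the alternatives run, and with DESeq2 size factors every count of called members stayed within 1.5 times. With no filter 2 of 51 were higher with LPS in wild type, Rab30 joining Rab20, beside 1758 of 21612 genes. At 1.5-fold the counts with LPS in wild type were 9 higher and 6 lower of 41, beside 2202 and 2230 of 11640 genes. In the knockout they were 11 and 7, beside 2247 and 2448 genes. At 1.5-fold the untreated genotype ratio gave 1 higher, beside 316 genes. The genotype ratio under LPS gave 2 each way, beside 463 and 524 genes. The difference in LPS response gave 2 each way, beside 307 and 449 genes. A mean of at least 10 CPM removes 10 members, Rab3a, Rab15, Rab19 and Rab43 among them. It left 1 of 31 higher with LPS in the knockout, beside 918 of 8799 genes. In the genotype ratios 0 were called, beside 27 and 16 genes (higher, lower) untreated and 42 and 60 under LPS. The difference in LPS response had 0, beside 21 and 42 genes. The additive genotype model also had 0, beside 62 and 51 genes. On FPKM 1 of 37 was lower with LPS in wild type, beside 681 of 10923 genes. In the knockout 1 was higher and 0 lower on FPKM, beside 1054 and 766 genes. Between genotypes 0 were lower untreated on FPKM, beside 46 genes, and 0 higher under LPS, beside 103. In LPS response 0 differed in either direction on FPKM, beside 132 and 124 genes. Rab43, Rab2b, Rab13 and Rab39 were under the FPKM filter, so the calls of Rab43 could not be made there. For the others, an added value of 1 shrinks ratios of low genes. Total-count scaling gave 5 lower with LPS in the knockout, Rab7b and Rab32 being added, beside 2156 of 11640 genes. In the additive LPS model it gave 11 higher and 16 lower, beside 2104 and 5786 genes. For that model DESeq2 gave 4 lower, beside 2315 genes.

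Counts over all genes (higher, lower) moved as follows where they moved by over 1.5 times. The wild-type LPS ratio called 1309 and 1180 genes, and 975 and 1904 by total counts, 2202 and 2230 at 1.5-fold, 882 and 691 at 10 CPM, and 1000 and 681 on FPKM. In the knockout these were 1345 and 1398, then 989 and 2156, 2247 and 2448, 918 and 793, and 1054 and 766. The untreated genotype ratio called 134 and 100, and 303 and 262 with no filter, 316 and 253 at 1.5-fold, 27 and 16 at 10 CPM, and 61 and 46 on FPKM. Under LPS these were 193 and 213, then 384 and 402, 463 and 524, 42 and 60, and 103 and 94. The difference in LPS response called 138 and 214, then 245 and 356, 307 and 449, 21 and 42, and 132 and 124. The additive LPS model called 3519 and 3503, with 2104 and 5786 by total counts and 2653 and 2315 by DESeq2. The additive genotype model called 115 and 108, with 59 and 74 by DESeq2, 81 and 61 by total counts, 299 and 320 with no filter, and 62 and 51 at 10 CPM. Depth limits the members with under 100 reads in every library, Rab2b, Rab3a, Rab4a, Rab13 and Rab39.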

Other observations

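Antisense and pseudogene copies of Rab genes were outside the comparisons. Rab10os, antisense to Rab10, had 300, 366, 291 and 459 reads in untreated wild type, untreated knockout, LPS wild type and LPS knockout. Rab26os, antisense to Rab26, had 82, 66, 16 and 23 reads, while Rab26 itself had at most 2. The pseudogene Rab11b-ps2 had 105, 137, 86 and 91 reads and Rab7-ps1 had 118, 107, 141 and 95. Rab10os shares 143 exon bases with Rab10, 4.07% of the Rab10 exon bases. Without strand in the counting, reads on those shared bases cannot be told apart. Rab26os was not among the genes found to share exon bases with Rab26.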
